A study of Arabidopsis thaliana with 2 samples.

Results

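ORP4C (AT5G57240), an oxysterol-binding protein relative, and SYP73 (AT3G61450), a syntaxin, are 2 Arabidopsis thaliana genes grouped here under the label membrane contact genes. Neither is in the list of contact-site tethers used below. The retention of an intron differed in both, in opposite directions, between wild-type embryos and embryos of a mutant called lefko. Their events are all those listed under these genes in 4 deposited tables of splicing events, and 2 events of the 270 belonged to them, in 2 of 227 genes. The genes were selected on their retained shares in both genotypes, so those shares are a description and no test is attached to them. RNA came from globular to heart stage embryos dissected out of siliques of wild-type and mutant plants, both in the Col-0 ecotype and grown under long days, with 1 labelled sample per genotype. The mutant sample is labelled lefko1, while lefko2 stands in the series title and the table headings. The series has a single mutant sample, to which both names were assigned. No label names the mutated gene, and its own reads were not analysed here. With 1 sample per genotype, an effect of the mutation cannot be told apart from any other difference between the samples. The tables give splicing reads only, so the labelled tissue was not checked against marker genes, and no value here measures a contact site.

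Oxysterol-binding protein relatives (ORPs) are lipid-binding proteins, and in yeast and animals several of them carry sterols or phosphoinositides between membranes where the endoplasmic reticulum lies close to another membrane. Syntaxins are SNARE proteins, membrane-anchored coils that pair to fuse membranes, and SYP71, SYP72 and SYP73 form a plant-specific group of them. In Arabidopsis, SYP73 is known for binding the endoplasmic reticulum to actin filaments. An intron that stays in the transcript can add residues where it is read through in frame, or shift the frame and bring an early stop codon.

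Both events lay in the intron retention table, and neither gene had an event in the other 3 tables. The tables list only events that passed the authors' threshold, a false discovery rate (FDR) of at most 0.05, so nothing is known here of the other introns of either gene. The retention table held 115 of an estimated 5174 tested events (2.22%). In 64 of them the mutant kept the intron more often (1.24% of tested events) and in 51 less often (0.986%). The table of alternative 5′ sites listed 3.50% of its tested events, that of alternative 3′ sites 2.37% and that of exon skipping 0.596%.

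The splice sites of both introns are shown because the reads are sorted at these junctions. Each line gives 10 exon bases and 20 intron bases from the RefSeq TAIR10.1 assembly, plus strand, 5′ to 3′, with the GT that opens the intron or the AG that closes it in capitals. The ORP4C windows lie at chr5:23194967-23194996 and chr5:23195032-23195061, and the SYP73 windows at chr3:22738601-22738630 and chr3:22738673-22738702.
ORP4C 5′ splice site: gaacctgcagGTtactgttataaactttct
ORP4C 3′ splice site: cagttatttctggtttgcAGgaggtgagtg
SYP73 5′ splice site: tgttcttcagGTtcgtttagatttctccga
SYP73 3′ splice site: acttgtgagggacgttatAGaaaacagagg

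At the ORP4C event most wild-type reads kept the intron and most mutant reads were spliced across it. Reads of a gene on the other strand, described below, cannot be told apart from reads that keep the intron. The ORP4C intron is 75 bases long (chromosome 5, 23194977 to 23195051) and lies between coding exons. It is the last of 6 introns in the annotated transcript with the longest chain. In each table cell 3 read counts are joined, and no label says whether they are cultures, libraries or sequencing runs. In the wild type 176 of 224 reads (78.6%), 241 of 273 (88.3%) and 127 of 152 (83.6%) kept the intron. In the mutant 59 of 218 (27.1%), 118 of 343 (34.4%) and 123 of 341 (36.1%) did. All 3 wild-type values were above all 3 mutant values, and 42.5 percentage points separated the nearest of them.

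Summed over the 3 counts, the retained share of ORP4C was 83.8% in the wild type (95% exact Clopper-Pearson interval 80.8 to 86.6, 649 reads). In the mutant it was 33.3% (30.2 to 36.4, 902 reads). The difference, mutant minus wild type, was -50.6 percentage points, and the log2 odds ratio was -3.37. Shares were not corrected for the length on which reads can fall, so they are compared within an event only. The intervals treat each read as independent and leave out any spread between samples. The labels mention no molecular identifiers, so duplicate reads may have been counted. The single wild-type values of 78.6% and 88.3% and the mutant value of 27.1% lay outside these intervals. The authors' deposited table writes both the p-value and the FDR of this event as 0, as for 5 of the 115 retention events.

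**Figure D1:**
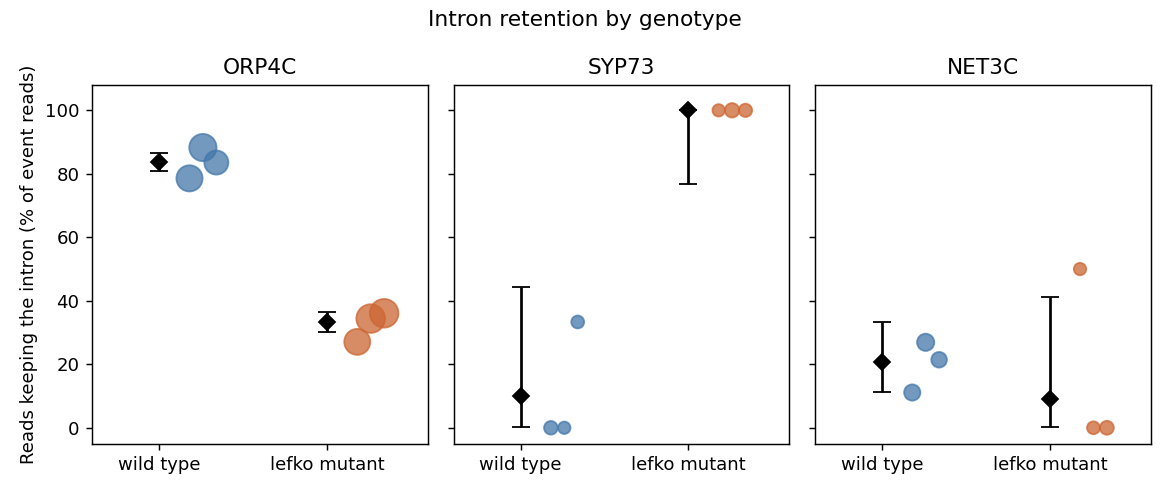
Share of event reads that kept the intron (%, y axis) in ORP4C, SYP73 and NET3C for each genotype; black diamonds are summed reads with 95% exact intervals, and coloured points are the 3 joined values, larger with more reads. The ORP4C points form separate groups around 83.8% and 33.3%, the SYP73 mutant points all sit at 100%, and the NET3C points overlap.

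Counts of both kinds of ORP4C reads differed between the samples, in opposite directions, but only the spliced reads stood apart from the table median. Reads that kept the intron numbered 544 in the wild type and 300 in the mutant, a ratio of 0.551 (95% counting interval 0.477 to 0.636). Reads spliced across it numbered 105 and 602, a ratio of 5.73 (4.65 to 7.12). Library totals were not analysed here, so the ratios can be read only beside those of other events. For reads keeping the intron, the ratio had a median of 0.490 over the 115 retention events, which lies inside the ORP4C interval. For spliced reads the median was 0.217, over the 109 events with such reads in the wild type, which lies below the ORP4C interval. The ORP4C ratio of spliced reads ranked 13 of those 109, and ORP4C had the fourth most spliced mutant reads of the table. Those medians take in gains and losses. Over the 51 losses alone the median was 0.227 for reads keeping the intron, and 1.55 for spliced reads in the 45 with such reads in the wild type. Both ORP4C ratios were above these medians.

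**Figure D2:**
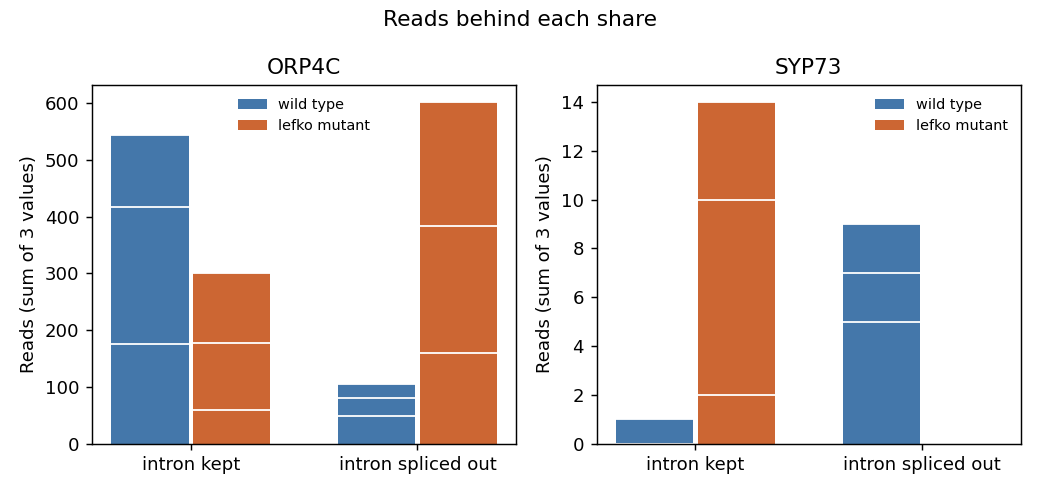
Reads that kept the intron and reads that spliced it out (y axis, sum of the 3 joined values, whose borders are the white lines) for ORP4C and SYP73 in wild type and mutant. In ORP4C the spliced reads went from 105 to 602, and in SYP73 the mutant has no spliced read; the y axes differ between the panels.

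Kept in the transcript, the ORP4C intron reads through in frame. Its length is a multiple of 3, it holds no in-frame stop codon, and it starts after 296 whole codons. The spliced form encodes 379 residues and the retained form 404, both ending at the same stop codon. The 25 added residues are positions 297 to 321 of the longer protein. RefSeq annotates both forms as coding, with the intron removed in 3 of 5 transcripts and kept in 2. Reads of the form without the added residues made up 16.2% of wild-type and 66.7% of mutant event reads. The event reads may include some from the gene on the other strand, so these are not shares of ORP4C transcripts.

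The shorter ORP4C protein has the same layout as its nearest relatives. ORP4A and ORP4B share 72.6% and 74.6% of aligned residues with it over 379 and 378 aligned positions. In the alignments of the spliced ORP4C protein with both ORP4A models and with the 2 longer ORP4B models, residues 296 and 297 fell on neighbouring residues, with no gap. The remaining ORP4B model, of 267 residues, does not reach this place. No annotated ORP4A or ORP4B transcript has an intron there, although 4 of the 5 coding introns of ORP4C had a counterpart at the same place in these 4 models. When the longer ORP4C protein was aligned, at most 2 of the 25 added residues found a partner in ORP4A or ORP4B. In the more distant ORP3A, ORP3B and ORP3C, at 24.9% to 26.3% identity over the aligned residues, 23, 23 and 16 of the 25 were aligned, of which 3, 2 and 4 were identical. These 3 genes have no intron at the aligned place in their longest models.

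AT5G57250, which encodes a pentatricopeptide repeat (PPR) protein of the family that binds organelle RNA, lies on the other strand. Its non-coding last exon (chromosome 5, 23194833 to 23195331) covers the whole ORP4C event. The labels do not say whether the library kept strand, so reads from this gene cannot be told apart from reads that keep the ORP4C intron. Reads spliced with GT and AG on the plus strand are those of ORP4C, and they are the reads that numbered 105 and 602. Of the 115 retention events, 7 had an opposite-strand exon over the intron, with 3 higher and 4 lower in the mutant. The part of AT5G57250 reads in the result was not tested. That gene had 0 listed events of its own, which does not tell how many of its reads lie over the intron.

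**Figure D3:**
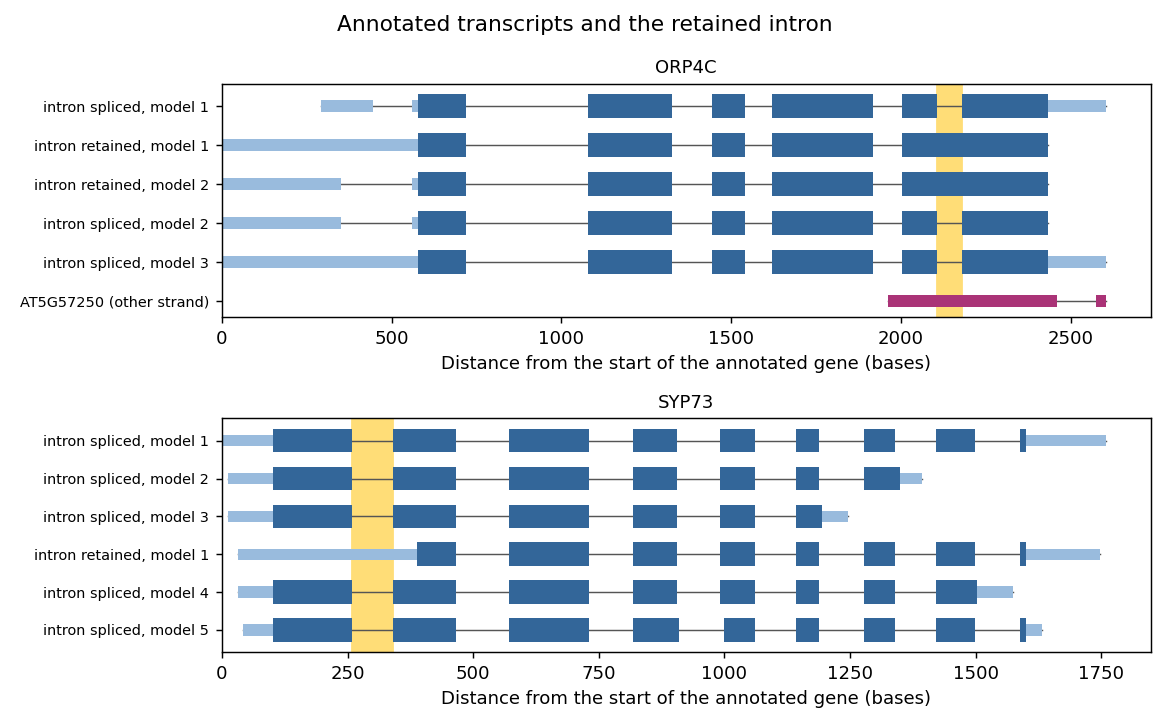
Annotated transcripts of ORP4C and SYP73 (x axis, bases from the start of the annotated gene); dark boxes are coding, pale boxes are non-coding, the yellow band is the retained intron, and the purple boxes are the exons of AT5G57250 on the other strand, drawn up to the end of ORP4C. The ORP4C intron lies near the 3′ end inside a coding exon of 2 models, while the SYP73 intron follows the first coding exon.

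SYP73 went the other way, on few reads. Its 82-base intron (chromosome 3, 22738611 to 22738692) is the first of 8 and lies between coding exons in 5 of 6 annotated transcripts. In the wild type 0 of 5, 0 of 2 and 1 of 3 reads kept the intron. In the mutant 2 of 2, 8 of 8 and 4 of 4 did. The single values do not overlap, but the highest wild-type value, 33.3%, rests on 3 reads.

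Summed, the retained share of SYP73 was 10% in the wild type (95% exact interval 0.253 to 44.5, 10 reads) and 100% in the mutant (76.8 to 100, 14 reads). For the 0 spliced reads among 14, the limit of 3 reads is 21.4%, slightly tighter than the end of that exact interval. The difference was 90.0 percentage points, the largest of the 64 gains in the table, followed by the kinase-like gene AT2G43700 with 87.5 points on 8 and 3 reads. Reads keeping the intron numbered 1 and 14, a ratio of 14.0 with a counting interval of 2.13 to 592. Spliced reads numbered 9 and 0, a ratio of 0 with a counting interval of 0 to 0.507. The authors' deposited table gives SYP73 a p-value of 4.77e-15 and an FDR of 3.09e-12. These values were not recomputed here, and they rest on 24 reads and 1 labelled sample per genotype. Among the other events with no more reads than SYP73, the smallest deposited FDR was 1.24e-12, so such values also occurred elsewhere at this depth. Only 6 of the 115 events had a smaller FDR, and 6 had fewer reads than the 24 of SYP73. No annotated exon on the other strand overlaps this intron.

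Retention shifts the SYP73 reading frame. The intron follows 52 whole codons and its length is not a multiple of 3. Read from the usual start codon, the frame passes through the intron without a stop and meets one in the next exon, 21 bases past the intron. The open frame then holds 86 residues, against 264 in the longest spliced form. That stop codon lies 603 bases before the last exon junction of the transcript. As background, stop codons far ahead of a later exon junction can direct transcripts to nonsense-mediated decay, which was not tested here. The stop is shown, in capitals, because it ends the frame of the retained form (chr3:22738700-22738728, plus strand, RefSeq TAIR10.1).
SYP73 stop codon in the shifted frame: aggatttgtcgtcTGAgacaaacaaagcg

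RefSeq annotates 1 SYP73 transcript that keeps the intron, and it has another reading. Its coding sequence starts at an in-frame codon 49 bases past the intron and encodes 196 residues, without the first 68 residues of the 264-residue form. The event reads do not show which start codon was used. The 2 close relatives have an intron at the same place, after 52 codons. It is 245 bases long in SYP71 and 408 bases long in SYP72, against 82 in SYP73. The proteins share 67.4% of 261 and 57.3% of 262 aligned residues with SYP73. Neither SYP71 nor SYP72 had a listed event.

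Both introns were short and rich in T, and their 3′ splice sites lay at opposite ends of the range. Against 131098 annotated introns of nuclear protein-coding genes with a median length of 101 bases, the ORP4C intron was longer than 5.14% and the SYP73 intron longer than 15.4%. T made up 48.0% of the ORP4C intron and 48.8% of the SYP73 intron, against a median of 40.7%. G and C made up 32.0% and 35.4%, around the median of 32.8%. The 5′ splice site score, a sum of log2 odds over 9 positions, was 7.47 bits for ORP4C and 7.91 bits for SYP73, both above the median of 7.02. The 3′ score, over 15 positions, was 12.1 bits for ORP4C, above 95% of introns and the highest of the 7 annotated introns of its gene. For SYP73 it was 2.16 bits, above 4.21% of introns and the second lowest of 9 in its gene. The intron with the high 3′ score was spliced more in the mutant, and that with the low score was retained more. The wild-type shares of the 2 introns were not ordered against the scores, because shares are compared within an event only. That of ORP4C may also include reads from the other strand, and that of SYP73 rests on 10 reads. For 2 introns this is a description, and a link between score and retention was not tested.

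ORP4C combined a large difference with many reads. Among the 29 events with at least 100 reads in each genotype, its difference was the largest, followed by ELI3-1 at 44.8 points and CYP72A13 at -39.5 points. Over all 51 losses it ranked 14, between AT4G04221 (-50.9 points, on 33 and 16 reads) and AT1G66940 (-48.5 points, on 11 and 6 reads). It had the ninth most reads of the 115 events. The 3 values of the genotypes did not overlap in 89 of the 115 events (77.4%). All 115 were listed for a difference (2.22% of those tested), so non-overlap as in ORP4C and SYP73 was common in this table. By the gap between the nearest values, ORP4C ranked 12 of the 115 and SYP73, on 24 reads, ranked 3.

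**Figure D4:**
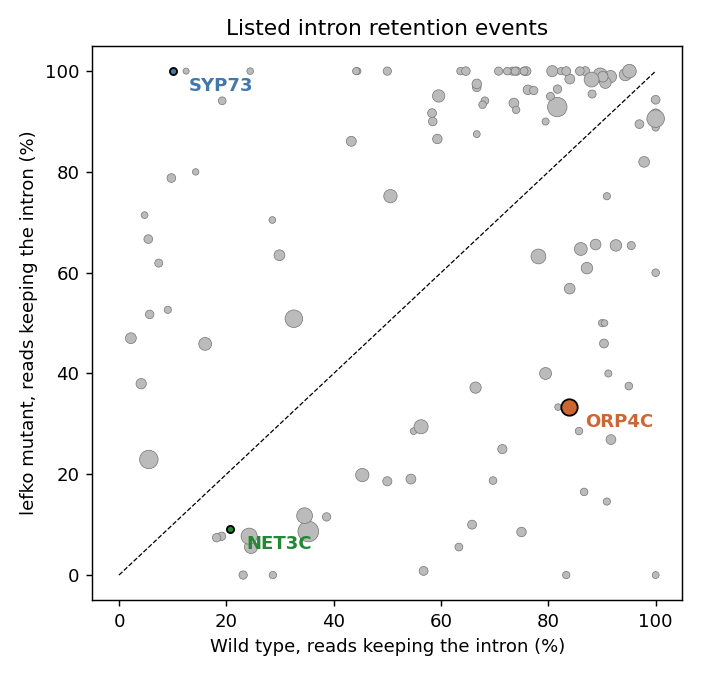
Retained share (%) in the wild type (x axis) and the mutant (y axis) for the 115 listed retention events; point size grows with the smaller read number of the 2 genotypes, and the dashed line marks equal shares. ORP4C lies below the line at 83.8% and 33.3%, and SYP73 at the upper left on 10 and 14 reads.

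In-frame introns like that of ORP4C were a small group in the table. Of 54 retained introns between coding exons, 10 had a length divisible by 3 and no stop codon. Their retained share was lower in the mutant in 7 and higher in 3, with a median difference of -22.3 points. Over the other 44 coding introns 24 were lower and 20 higher, with a median of -14.0 points. The ORP4C loss of 50.6 points was exceeded among the 10 by that of AT3G53830, from 63.3% of 30 reads to 5.56% of 18. ORP4C had the most reads of the 10 in all. AT2G37510 had the largest gain, from 59.6% of 183 reads to 95.1% of 487.

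ORP4C had more event reads in the mutant, whereas most listed events had fewer. Its number was 1.39 times that of the wild type (95% counting interval 1.26 to 1.54) and that of SYP73 1.40 times (0.578 to 3.52). Over the 115 retention events this ratio had a median of 0.510, and 29 were above 1. Both intervals lie above that median, and that of SYP73 also includes 1. Without library totals neither value marks an equal level in the samples. These are reads at the event and not transcript levels.

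Among related genes, 1 more had an event. The lists used held ORPs (12), contact-site tethers (13) and genes whose annotated names match SNARE terms (88), not all of which are SNAREs. Of these 113 genes with introns, 3 had a listed event (2.65%), against 212 of 22228 protein-coding genes with an intron (0.954%). The 3 include the 2 genes chosen for their events, so no comparison was drawn. The 11 other ORPs and the 87 other SNARE-list genes had none. The third gene was NET3C, which encodes an actin-binding protein that forms contacts of the endoplasmic reticulum with the plasma membrane together with VAP27-1, in Arabidopsis. Its intron is in the 5′ UTR (115 bases, chromosome 2, 19615868 to 19615982), so retention leaves the annotated protein of 225 residues as it is.

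The NET3C intron was kept in 2 of 18, 7 of 26 and 3 of 14 wild-type reads and in 1 of 2, 0 of 3 and 0 of 6 mutant reads. The 3 wild-type shares ran from 11.1% to 26.9% and the 3 mutant shares from 0% to 50.0%, so the genotypes overlapped. Summed, the share was 20.7% (95% exact interval 11.2 to 33.4) and 9.09% (0.230 to 41.3). In the authors' deposited table the FDR of NET3C is 0.0181. Its event reads were fewer in the mutant, at 0.190 times the wild-type number (0.0898 to 0.365).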

How the data were processed

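The authors deposited 4 tables of splicing events with exon coordinates, read counts, a p-value and an FDR per event. Per the submitters' processing notes, HISAT2 2.0.4 and the TAIR10 build were used; for the splicing caller, a name is not given in the sources used here. Count cells, as deposited, join 3 whole numbers. Columns headed IC and SC were read as reads keeping and skipping the alternative segment. The 3 numbers were summed, because no label says what they are, and each genotype counted as 1 sample. Median depth was 66 wild-type and 37 mutant reads per retention event. Shares carry exact Clopper-Pearson 95% intervals; no replicate model was possible. The odds ratio used a pseudocount of 0.5 reads.

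The number of tested events came from FDR times rank over p, and 106 of 110 retention events gave it within 1%. Starts count from 0 in the tables: 583 of 810 listed exons then equal an annotated exon, against 1 otherwise. Positions are printed from 1. Gene models and sequence came from RefSeq TAIR10.1, whose chromosome accessions equal those of the tables. Proteins were aligned with BLOSUM62 (gap costs 11 and 1, end gaps free) in Biopython 1.88. Splice site scores used position weight matrices of all annotated introns. Named genes were both members, their neighbours by difference, and listed genes of the ORP, tether and SNARE lists; other genes named were picked after their values were seen. Members and lists were chosen with earlier results of these data known. The SNARE list takes words in annotated names, including SNARE-associated proteins, and leaves out bromodomain genes whose symbols also begin with BET. Alternatives were the mean of the 3 shares, leaving out each value, division of retained reads by 2 junctions, added pseudocounts, spliced reads only and an FDR under 0.01.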

Additional observations from a re-analysis of the deposited data

How the results depend on the processing

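Direction held under every alternative run for both retained-share differences. In both genes the values of the genotypes did not overlap, so leaving out or averaging values could not reverse it. Dividing the retained reads of both genotypes by 2 could not reverse it either, so these runs show only the range of sizes. Leaving out each of the 3 values in turn, the ORP4C difference ran from -53.3 to -47.3 percentage points and that of SYP73 from 80.0 to 100 points. The mean of the 3 shares gave -51.0 and 88.9 points, division of retained reads by their 2 junctions -52.2 and 94.7, and 0.5 added reads -50.5 and 83.0. With spliced reads only, the mutant to wild-type ratio moved from 1.39 to 5.73 for ORP4C and from 1.40 to 0 for SYP73, which follows from counting 1 kind of read. At an FDR under 0.01 the tether list had 0 genes with an event, since NET3C drops out. No paired analysis was possible because each genotype has 1 labelled sample and the joined values carry no replicate numbers. Depth limits SYP73 most: its 10 wild-type reads leave a share of up to 44.5%.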
